A study of Cicer arietinum with 12 samples.

Results

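The drought response of ICC283, a chickpea (Cicer arietinum) genotype labelled drought sensitive, was measured in leaf RNA as the difference between 3 drought-stressed and 3 well-watered libraries, 6 of the 12 libraries of the study. The members were taken by the column names of the authors' deposited table for ICC283, C1 to C3 for the well-watered and S1 to S3 for the drought-stressed libraries. Drought-stressed ICC283 plants were kept at 20% of the soil's field capacity and well-watered ICC283 plants at 80%. The other 6 libraries came from ICC8261, labelled drought tolerant, under the same pair of treatments, and were used to estimate the spread and to test whether the drought effects differed. All plants grew in pots in a glasshouse and were sampled at the shoot apical meristem stage. No allele, transgene or further agent is named in the labels for any group, plant age is not given as a number of days, and whether every library stands for its own pot is not spelled out, so p-values reflect only the spread among libraries, which may be technical. The study's stated aim was to find drought-responsive genes and to see how transcription factors and hormone signalling differ between the genotypes.

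Plants that run short of soil water close their stomata, make the hormone abscisic acid and slow the expansion of new leaves. Abscisic acid acts largely through bZIP transcription factors, which switch on late embryogenesis abundant (LEA) proteins and dehydrins, small hydrophilic proteins that protect other proteins and membranes as cells dry, while the amino acid proline accumulates as an osmolyte. Leaf growth depends on expansins and xyloglucan endotransglucosylases, which loosen the cell wall, and on the cytoskeleton.

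The treatment of library 3 in each ICC283 group differed between the deposited sources. The reads of the table's well-watered library 3 equalled, at all 27234 genes, those of the count file labelled as drought library 3, and the reads of the table's drought library 3 equalled those of the count file labelled well-watered 3. A pair of ICC8261 libraries was exchanged too, but across replicate numbers, well-watered library 1 with drought library 2. Labels here follow the table, and each main result is given again for the 8 libraries on whose treatment both sources agree, 2 per group. Each ICC283 library had between 8910704 and 12192098 reads in genes, with 20477 to 21178 genes detected by 1 read or more. The labelled leaf tissue was checked by markers of leaf and of other tissues. The 10 plastid-encoded genes with a symbol, 6 of them of photosynthesis, summed to between 71696 and 80381 CPM (read counts scaled to library size) in the ICC283 libraries. The gene taken as a nodule marker, nodulin-35, of the enzyme uricase, was present in every ICC283 library. It lay between 23.8 and 29.7 CPM, or 210 to 313 reads. The seed storage gene LEG had between 0 and 2 reads and the floral meristem gene LFY between 1 and 4.

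Along the first principal component of the 6 ICC283 libraries, which held 65.9% of the variance in log2 CPM, the well-watered libraries 1, 2 and 3 lay at −47.7, −75.3 and −78.8 and the drought libraries at 93.1, 71.6 and 37.1. The groups were therefore apart on this axis under the table's labels, and drought library 3 lay nearest to the well-watered side. The second component held 15.9% and ordered the well-watered libraries, from −57.4 in library 1 through −15.8 in library 2 to 57.1 in library 3.

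**Figure D1:**
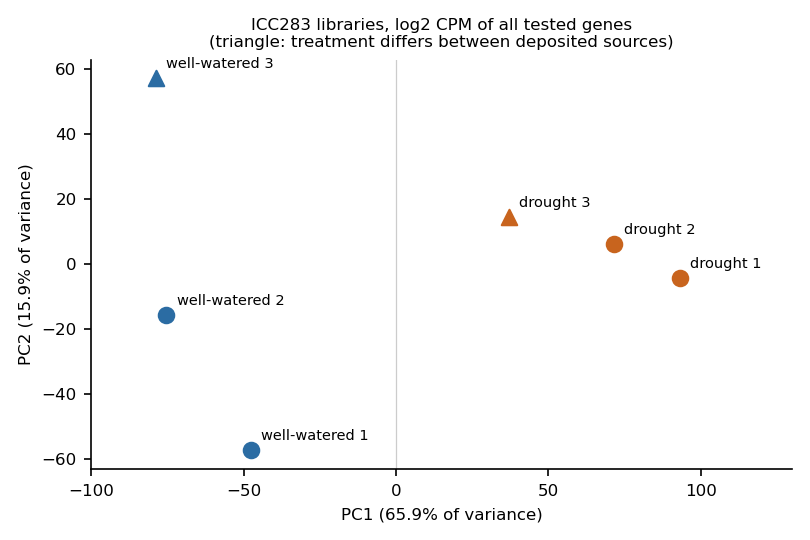
Positions of the 6 ICC283 libraries on the first and second principal components (PC1 and PC2, unitless scores with the share of variance on each axis) of log2 CPM of the tested genes. Triangles mark the libraries 3, whose treatment differs between the deposited sources; all 3 well-watered libraries lie left of 0 and all 3 drought libraries right of it.

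Under drought, ICC283 leaves held more transcripts of dehydrin and LEA genes, of a homeodomain-leucine zipper factor, of the clock genes TOC1A and PRR37B and of a FLOWERING LOCUS T gene. They held fewer transcripts of 2 of 4 expansin genes and of a xyloglucan endotransglucosylase gene, of actin and tubulin genes and of early phenylpropanoid enzymes. Of 48 UDP-glycosyltransferases tested 21 were lower (43.8%) and 1 higher. Of 50 NAC factors tested 15 were lower (30%) and 4 higher. Among all genes tested 20.1% were lower, and in the agreed libraries 16 and 15 of these falls were called again. In leaf RNA, fewer cells of a type and less RNA per cell cannot be told apart. Of 18592 genes tested, 6833 were called at an adjusted p under 0.05, or 36.8%, with 3088 higher under drought (16.6%) and 3745 lower (20.1%). These percentages are the background for every list count below, and the median log2 fold change of all genes tested was −0.01. In the 8 libraries of agreed treatment 7167 of 18750 genes were called (38.2%), 3210 higher (17.1%) and 3957 lower (21.1%). Of the 6833 genes, 5603 (82.0%) were called in the same direction there, 2406 higher and 3197 lower, and 0 in the opposite direction. With the treatments of the count files in place of the table's, edgeR called 0 genes at an adjusted p under 0.05, with 1841 at an unadjusted p under 0.05, and DESeq2 called 32, so the calls rest on the table's labels or on the agreed libraries. Fitted on the 6 ICC283 libraries alone, without the ICC8261 libraries that share the spread, 4526 genes were called, 1907 higher and 2619 lower.

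The libraries of conflicting treatment can be read against calls made without them. Of the 7167 genes called in the 8 agreed libraries, the table's drought library 3 lay on the called side of the table's well-watered library 3 for 5969, or 83.3%. For the genes called higher, the median log2 ratio was 0.88 between the agreed libraries and 0.49 between the conflicting pair, and for those called lower it was −1.21 and −0.77. The conflicting pair thus moved in the direction that the table's labels give, by a smaller amount at the median.

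Large changes in ICC283 were mostly falls. Of the called genes that changed at least 4-fold (2 on the log2 scale), 255 were higher and 1028 lower, so 80.1% were lower. At 8-fold (3 on the log2 scale) the counts were 69 higher and 386 lower, and at 32-fold (5 on the log2 scale) 14 and 44. The excess of falls at 4-fold was present at every level of expression tested: 31 against 168 for genes with a mean under 1 CPM, 139 against 600 from 1 to 10 CPM, 75 against 237 from 10 to 100 CPM, and 10 against 23 at 100 CPM or more. In the 8 agreed libraries 362 were higher and 1263 lower at 4-fold, 77.7% lower, and leaving out each ICC283 library in turn gave between 75.2% and 81.2%. In ICC8261 219 were higher and 208 lower at the same fold, 48.7% lower, and in the 8 agreed libraries 206 and 122, 37.2% lower. Whether this share differs between the genotypes was not tested as such. In the plot of called genes by size the solid ICC283 lines for rises and falls part up to a log2 change of 3. There 84.8% of the called genes were lower, against 81.7% at 4 and 75.9% at 5. The shares in the 8 agreed libraries were 84.6%, 87.2% and 87.1%.

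**Figure D2:**
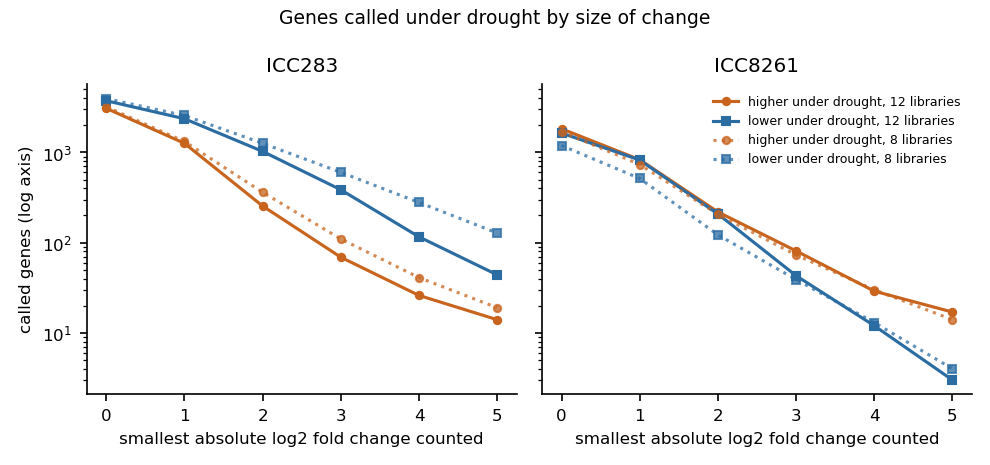
Number of called genes (log axis) with at least the absolute log2 fold change on the x axis, in ICC283 (left) and ICC8261 (right), higher under drought in orange and lower in blue. Solid lines are all 12 libraries and dotted lines the 8 of agreed treatment; in ICC283 255 genes are higher and 1028 lower at a log2 change of 2, against 219 and 208 in ICC8261.

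In the descriptions that follow, values are CPM in libraries 1, 2 and 3 of each group, in that order. The libraries of conflicting treatment are library 3 of each group in ICC283. In ICC8261 they are well-watered library 1 and drought library 2. Fold changes are on the log2 scale, drought over well-watered, with the standard error (SE), and p-values are adjusted over all genes tested. A gene is said to have risen or fallen where it was called. The genes named for the largest rises and falls were chosen only where the groups did not overlap. For them a lack of overlap was thus set by the choice and only describes the values. Of the 6833 called genes 6327 had groups that did not overlap. Unless the text says otherwise, a named gene's call in ICC283 held in each of the 6 fits that left out 1 ICC283 library and in the 8 libraries of agreed treatment. CPM are not divided by transcript length, so levels of different genes are not compared.

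**Figure D3:**
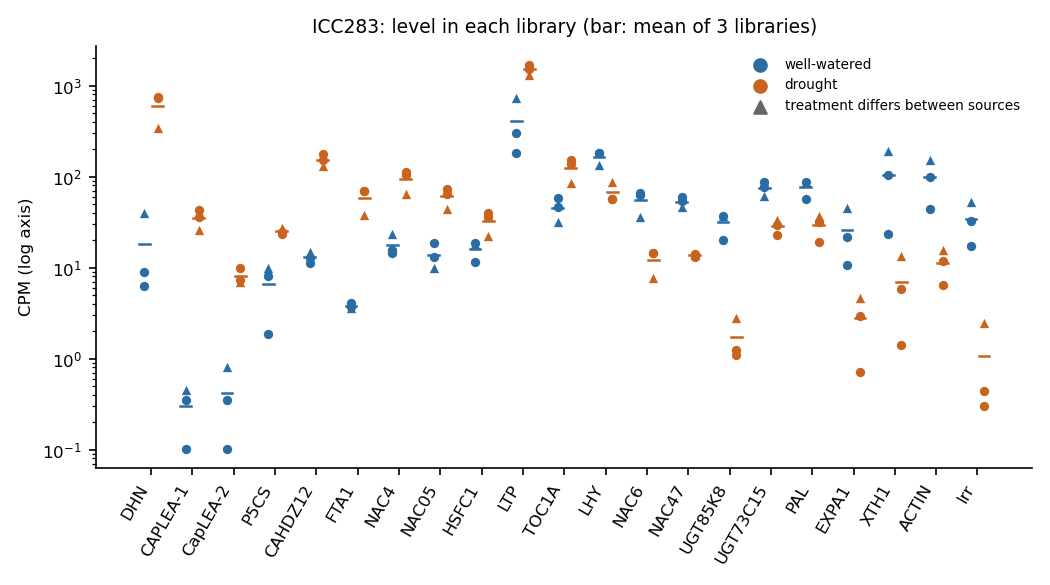
CPM (log axis) of 21 named genes in each ICC283 library, with well-watered libraries in blue and drought libraries in orange. Bars are means of 3 libraries and triangles the libraries 3, whose treatment differs between sources. DHN goes from at most 39.9 CPM to at least 339.7 CPM, and lrr from at least 17.3 CPM to at most 2.49 CPM.

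The dehydrin, LEA and osmolyte genes carried the largest rises among genes with a symbol. Of 6 such genes in the files, 5 passed the filter on low counts and 4 rose, with 0 lower and a median log2 fold change of 4.19 (5.22 in the 8 agreed libraries). The dehydrin gene DHN (LOC101504337) was at 9.02, 6.26 and 39.9 CPM in the well-watered libraries and at 729.6, 743 and 339.7 CPM under drought. The groups did not overlap: drought library 3 was the lowest drought library and well-watered library 3 the highest control, and the change was 5.02 ± 0.69 (adjusted p = 3.4e-04), or 6.56 in the agreed libraries. The LEA gene CAPLEA-1 (LOC101503652) was nearly silent in well-watered leaves, with 1, 3 and 5 reads, or 0.103, 0.348 and 0.453 CPM, and reached 35.9, 42.5 and 25.9 CPM under drought. All 3 drought libraries were far above all 3 controls, and the rise was 6.78 ± 0.66 (adjusted p = 4.1e-05). A second LEA gene, CapLEA-2 (LOC101511433), went from 0.103, 0.348 and 0.815 CPM to 7.35, 10.02 and 7.03 CPM, a rise of 4.19 ± 0.46 with no overlap (adjusted p = 5.8e-05).

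P5CS (LOC101512568), which encodes pyrroline-5-carboxylate synthetase, the enzyme that commits glutamate to proline, was at 1.85, 8 and 9.87 CPM in well-watered leaves and at 23.2, 24.9 and 27.6 CPM under drought. The drought libraries were close together and above all controls, of which library 1 was the lowest, and the rise was 1.93 ± 0.61 (adjusted p = 0.029). This call was the least firm of the list. It was lost in each of 5 fits that left out 1 library, with adjusted p-values of 0.075 and 0.056 without well-watered libraries 1 and 2, and of 0.058, 0.061 and 0.058 without drought libraries 1, 2 and 3. It was kept without well-watered library 3 (adjusted p = 0.046). CAGOLS1 (LOC101507897), of the galactinol synthases that start the synthesis of raffinose sugars, was at 6.46, 6.26 and 6.16 CPM and 3.72, 4.35 and 6.82 CPM, a change of −0.35 ± 0.26 that was not called (adjusted p = 0.3), and CAGOLS2 had 15 reads in the ICC283 libraries and was not tested.

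The single gene of the abscisic acid list, BZIP (LOC101514947), a bZIP transcription factor, was at 319, 247 and 162 CPM in well-watered leaves and 471, 462 and 355 CPM under drought. Its lowest drought library, library 3, was above its highest control, library 1, and the rise was 0.82 ± 0.22 (adjusted p = 0.011). The homeodomain-leucine zipper gene CAHDZ12 (LOC101509884) was at 12.6, 11.4 and 15 CPM against 151, 177 and 131 CPM. The 3 controls were alike, every drought library was many times higher, and the rise was 3.55 ± 0.53 (adjusted p = 5.3e-04), or 3.75 in the agreed libraries. Factors of this class are best known in Arabidopsis, where some of them respond to abscisic acid and water deficit.

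NAC transcription factors are a large plant family, with members known for roles in drought responses, senescence and the building of secondary cell walls. In ICC283 more of them fell than rose. Of 62 NAC genes in the files 50 were tested, 4 were higher and 15 lower under drought, and the median was −0.62. All 19 were called in the same direction in the 8 agreed libraries. Among those that rose, NAC4 (LOC101506671) went from 15.6, 14.4 and 23.5 CPM to 104, 114 and 64.7 CPM, with drought library 3 the lowest drought library and still above every control, a change of 2.40 ± 0.48 (adjusted p = 0.0029). NAC52 (LOC101509428) was at 18.7, 12.1 and 14.4 CPM against 84, 77.5 and 54.2 CPM (change 2.26 ± 0.37, adjusted p = 8.1e-04), and NAC05 (LOC101506350) at 18.6, 13.1 and 9.87 CPM against 64.8, 73.8 and 44.4 CPM (change 2.14 ± 0.26, adjusted p = 1.2e-04). In both, well-watered library 1 was the highest control and the groups lay apart. NAC11, the smallest of the 4 rises, changed by 1.12 ± 0.29.

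Among the NAC genes that fell, NAC6 (LOC101514169) was at 65.6, 63.5 and 36 CPM in well-watered leaves and 14.4, 14.5 and 7.68 CPM under drought. Library 3 was the lowest of its group in both treatments, the groups did not overlap, and the change was −2.17 ± 0.26 (adjusted p = 1.1e-04). NAC47 (LOC101505565) went from 53.5, 59.5 and 46.8 CPM to 14.1, 13.1 and 13.6 CPM, with the 3 drought libraries within about 1 CPM of each other, a change of −1.97 ± 0.29 (adjusted p = 3.6e-04). NAC69 (LOC101489720) went from 20.3, 18.5 and 14.9 CPM to 4.93, 4.52 and 4.87 CPM (−1.90 ± 0.22), and NAC51 (LOC101493442) from 9.43, 13.7 and 7.25 CPM to 1.41, 3.37 and 4.22 CPM (−1.75 ± 0.32). In both, every drought library was below every control. NAC39 (LOC101511564) fell from 3.69, 2.67 and 1.9 CPM to 0.201, 0.266 and 1.08 CPM, a change of −2.43 ± 0.55 (adjusted p = 0.0048), with drought library 3 above the other drought libraries. NAC44 changed by −2.33 ± 0.78 (adjusted p = 0.032), but its call was lost without well-watered library 2 (−1.96, adjusted p = 0.11), well-watered 3 (−2.32, 0.05), drought 1 (−1.76, 0.088) or drought 2 (−2.63, 0.064).

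**Figure D4:**
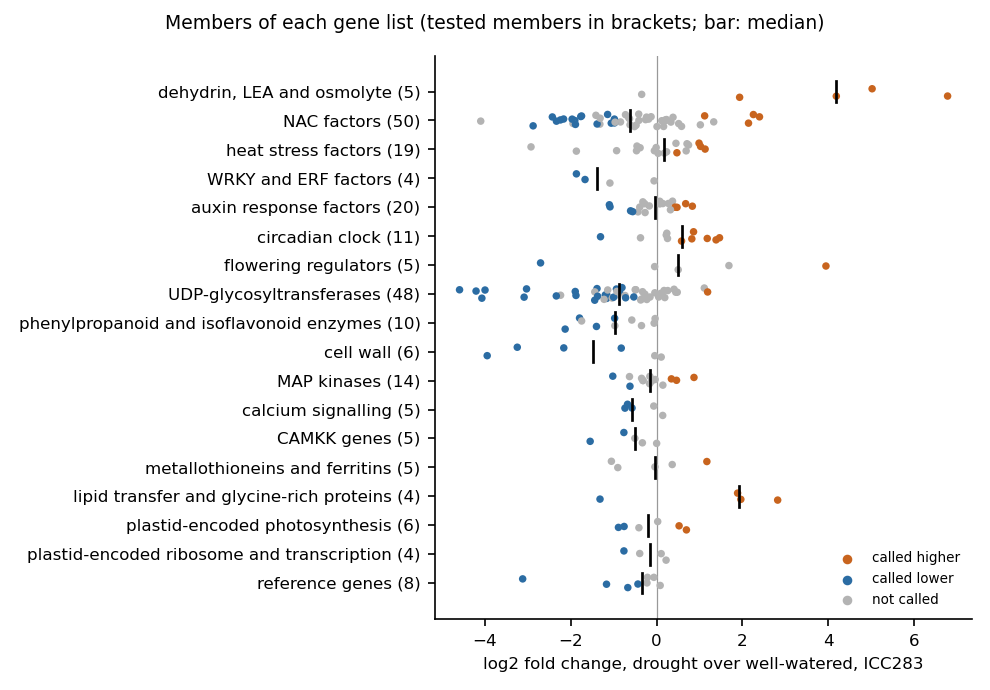
Log2 fold change under drought (x axis) of the tested members of each gene list of at least 4 tested members in ICC283, with members called higher in orange, called lower in blue and not called in grey; bars are list medians and vertical scatter within a row is for display. The dehydrin and LEA genes lie furthest to the right. The median of the dehydrin, LEA and osmolyte list is 4.19, with P5CS at 1.93 and CAGOLS1 at −0.35. NAC factors (15 lower, 4 higher) and UDP-glycosyltransferases (21 lower, 1 higher) reach furthest to the left.

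Heat stress factors (HSF), which drive chaperone genes in hot or otherwise stressed cells, numbered 19 tested of 21, of which 4 were higher and 0 lower with a median of 0.18, and 1 of the 4 was called again in the agreed libraries. That gene was HSFC1 (LOC101489265), at 11.6, 18.8 and 18.2 CPM against 40.2, 36.1 and 22.4 CPM, a rise of 1.02 ± 0.29 (adjusted p = 0.016) that was lost without well-watered library 1 (0.84, adjusted p = 0.05), drought 1 (0.86, 0.066) or drought 2 (0.96, 0.05). The other 3, HSFB3, HSFA1 and HSFA2, changed by 1.13, 0.47 and 0.99 and had adjusted p-values of 0.11, 0.087 and 0.28 in the agreed libraries. Their calls were also lost in 3, 5 and 4 of the 6 fits that left out 1 library, with adjusted p-values up to 0.10, 0.14 and 0.13. Of 4 WRKY and ERF genes, whose families are known for pathogen and ethylene responses, 2 fell and 0 rose, with a median of −1.38. CARERF1 (LOC101492500), an ERF gene, went from 107, 148 and 55.6 CPM to 39.5, 37.3 and 20.8 CPM, a change of −1.67 ± 0.38 (adjusted p = 0.0055). CaWRKY50 (LOC101502574) went from 104, 92.6 and 23.6 CPM to 22.6, 27.1 and 10.4 CPM, a change of −1.87 ± 0.50 (adjusted p = 0.014). Its well-watered library 3 was below drought library 2, so its groups overlapped, and without well-watered library 1 the change was −1.53 (adjusted p = 0.058).

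Auxin response factors, which bind the promoters of auxin-regulated genes, showed no shared direction: of 20 tested of 22, 4 were higher and 4 lower with a median of −0.05, and 3 of each were called again in the agreed libraries. ARF4 fell by 1.08 on the log2 scale and ARF1 rose by 0.68. The remaining 6 calls of this list were lost in 2 to 5 of the 6 fits that left out 1 library.

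Genes of the circadian clock, which times daily rhythms by a loop of morning- and evening-expressed repressors, included 6 rises and 1 fall among 11 tested, with a median of 0.58. TOC1A (LOC101500788), of the evening component TOC1, was at 57.6, 46.1 and 31.5 CPM in well-watered leaves and 152, 136 and 84.8 CPM under drought, a rise of 1.47 ± 0.27 (adjusted p = 0.0016), with library 3 the lowest of its group in both. PRR37B (LOC101512945), a pseudo-response regulator, was at 48.2, 42.8 and 40.8 CPM against 119.7, 113 and 112 CPM. The replicates of each group were close together and the groups lay apart, with a rise of 1.39 ± 0.14 (adjusted p = 3.1e-05). PRR59A (LOC101514597), another pseudo-response regulator, was at 105, 76.7 and 39.6 CPM against 204, 181 and 117 CPM, a rise of 1.18 ± 0.29 (adjusted p = 0.0079), and ELF3A, an evening complex gene, rose by 0.86. LHY (LOC101500635), which encodes a morning Myb factor that represses evening genes, was the clock gene that fell, from 183, 181 and 133 CPM to 57.3, 56.6 and 87.5 CPM. Drought library 3 lay between the other drought libraries and the controls, and the change was −1.31 ± 0.22 (adjusted p = 7.8e-04). The labels give no hour of sampling.

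Of the flowering regulators 5 of 8 were tested, 1 was higher and 1 lower. FTA1 (LOC101497376), a FLOWERING LOCUS T gene whose relatives encode the mobile flowering signal made in leaves, was at 4.1, 3.71 and 3.62 CPM in well-watered libraries and 68.8, 70.2 and 37.4 CPM under drought. The controls lay within 1 CPM of each other, all drought libraries were several times higher, and the rise was 3.95 ± 0.36 (adjusted p = 2.5e-05). FT-B (LOC101505276), another gene of the family, was at 2.26, 0.927 and 0.272 CPM against 0.101, 0.0887 and 0.325 CPM, a change of −2.70 ± 0.94 (adjusted p = 0.038). Its groups overlapped, and the call was lost without well-watered library 1 (−1.73, adjusted p = 0.19), well-watered 2 (−2.83, 0.059), drought 1 (−2.46, 0.11) or drought 2 (−2.38, 0.12).

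UDP-glycosyltransferases, which attach sugars to flavonoids, hormones and other small molecules, had more falls by count than any other list. Of 70 genes 48 were tested, 1 was higher and 21 lower, and the median was −0.88. The share lower, 43.8%, stands beside 20.1% of all genes tested, and in the agreed libraries 16 of the 21 were called again. Some smaller lists had a higher share lower, such as cell wall genes (66.7%) and calcium signalling genes (60%). UGT85K8 was at 20.2, 36.6 and 37.3 CPM in well-watered leaves and 1.11, 1.24 and 2.81 CPM under drought. Every drought library was under 3 CPM and every control above 20, and the change was −4.20 ± 0.49 (adjusted p = 1.1e-04). UGT88E8 went from 6.15, 7.65 and 9.87 CPM to 1.61, 1.15 and 1.95 CPM (−2.34 ± 0.27, adjusted p = 7.5e-05), and UGT73C15 from 86.5, 77.3 and 61.6 CPM to 29.5, 23 and 33.8 CPM (−1.39 ± 0.17, adjusted p = 1.1e-04). In both, no drought library reached a control. UGT71S1 was at 619, 429 and 435 CPM against 238, 219.9 and 205 CPM, with a change of −1.16 ± 0.19 (adjusted p = 5.4e-04). The single member that rose was UGT85X1, from 10.3, 8.7 and 8.33 CPM to 21.7, 22.2 and 18.3 CPM (1.19 ± 0.15, adjusted p = 1.4e-04). By family, falls were counted for 3 of 5 UGT72, 3 of 6 UGT73, 2 of 4 UGT79 and 3 of 3 UGT89 genes, of which 1 was called again in the agreed libraries for UGT89, and 0 of 3 UGT87 and 0 of 2 UGT92 genes were called.

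None of the enzymes that supply flavonoids and isoflavonoids rose. Of the phenylpropanoid and isoflavonoid enzymes 10 of 11 were tested, 0 were higher and 4 lower, all 10 values were below 0, and the median was −0.97. PAL (LOC101509831), phenylalanine ammonia-lyase, which makes cinnamic acid at the entry to the pathway, was at 57.2, 87.6 and 86.7 CPM in well-watered leaves and 19.3, 31.8 and 36.7 CPM under drought. Library 1 was the lowest of its group in both treatments, the groups did not overlap, and the change was −1.40 ± 0.26 (adjusted p = 0.0016). CYP73, cinnamate 4-hydroxylase, the next enzyme, was at 192, 223 and 259.7 CPM against 72.7, 126 and 145 CPM and fell by 0.98 on the log2 scale (SE 0.23, adjusted p = 0.006). IFR, isoflavone reductase, of the branch that gives pterocarpan defence compounds, was at 80.3, 47.1 and 17 CPM against 15.1, 15.9 and 10.5 CPM, a change of −1.79 ± 0.50 (adjusted p = 0.016). Its call was lost without well-watered library 1, the highest control (−1.20, adjusted p = 0.069), or drought library 3 (−1.63, 0.052). The isoflavone hydroxylase gene cyp81E3v2 changed by −2.13 ± 0.67 (adjusted p = 0.025), and by −1.39 (adjusted p = 0.12) without well-watered library 1.

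Some genes of wall loosening were among the deepest falls of genes with a symbol and a mean of at least 2 CPM. Of 6 cell wall genes 4 fell and 0 rose, with a median of −1.49. XTH1 (LOC101493288), a xyloglucan endotransglucosylase, which cuts and rejoins wall xyloglucan, was at 23.3, 103 and 189 CPM in well-watered leaves and 1.41, 5.86 and 13.4 CPM under drought. In both groups library 1 was the lowest and library 3 the highest, the groups did not overlap, and the change was −3.95 ± 0.92 (adjusted p = 0.0069). The expansin gene EXPA1 (LOC101513870) had the same order of libraries, 10.7, 21.9 and 45.4 CPM against 0.704, 2.93 and 4.65 CPM, and fell by 3.24 on the log2 scale (SE 0.60, adjusted p = 0.0021). A further expansin gene, CA-EXPA2 (LOC101502026), went from 11.8, 16.3 and 44.4 CPM to 3.12, 5.32 and 7.9 CPM (−2.16 ± 0.51, adjusted p = 0.0074). The other expansin genes of the list, CA-EXPA3 and CA-EXPA4, were at −0.04 and 0.11 and were not called (adjusted p = 0.92 and 0.88). The pectin methylesterase gene pme1 (LOC101489689), of wall pectin modification, went from 12.8, 14.6 and 13.4 CPM to 7.75, 6.3 and 9.09 CPM (−0.82 ± 0.17, adjusted p = 0.0027). Under the count-file labels the values of XTH1, EXPA1 and CA-EXPA2 were 0.49, 0.40 and 0.55, opposite in sign and not called, because well-watered library 3 was then counted as drought.

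Some genes of kinds often used to normalize plant expression data were lower under drought. Of 8 tested of 9, 0 were higher and 4 lower, with a median of −0.33. The cytoskeletal gene ACTIN (LOC101509704) was at 43.9, 99.4 and 152 CPM in well-watered leaves and 6.44, 11.9 and 15.7 CPM under drought, a change of −3.12 ± 0.49 (adjusted p = 7.0e-04). Its order of libraries was that of XTH1 and EXPA1, lowest in library 1 and highest in library 3 of each group, and the groups lay apart. A separate entry, actin (LOC101503086), went from 972, 882 and 1176 CPM to 630.0, 637 and 638 CPM (−0.67 ± 0.13, adjusted p = 0.0019), and TUBB, of beta-tubulin, from 313, 357 and 463 CPM to 153, 192 and 161 CPM (−1.17 ± 0.16, adjusted p = 2.1e-04). The drought libraries of both were below all controls. IF4A, of a translation initiation helicase, changed by −0.43 ± 0.12 (adjusted p = 0.016), and by −0.39 (adjusted p = 0.071) without drought library 1. In ICC8261 5 of these 8 genes were lower and 0 higher. Scaling by upper quartiles or by DESeq2-type size factors left each of the 4 falls called in ICC283.

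Of 14 tested of 15 MAP kinases, which relay stress signals by phosphorylation, 3 were higher and 2 lower with a median of −0.16, and the 3 rises, MAPK3, MAPK7 and CAMAPK5, at 0.87, 0.46 and 0.35, were not called in the agreed libraries. Without drought library 1 the calls of MAPK3 (0.72, adjusted p = 0.097) and MAPK7 (0.42, 0.054) were lost as well, and that of CAMAPK5 was lost without any of the 6 libraries (adjusted p from 0.051 to 0.11). The falls were MAPK11 (−0.62 ± 0.16; −0.55, adjusted p = 0.054, without drought library 1) and MAPK9 (−1.02 ± 0.37), whose call was lost without well-watered library 2 (−0.91, adjusted p = 0.12), well-watered 3 (−1.01, 0.074), drought 1 (−0.83, 0.15) or drought 2 (−0.93, 0.13). Of 5 calcium signalling genes 3 fell and 0 rose, with a median of −0.57. The calcium sensors calmodulin and CAM changed by −0.68 ± 0.17 and −0.57 ± 0.14. CDPK2, a calcium-dependent protein kinase, changed by −0.74 ± 0.25 (adjusted p = 0.034). Its call was lost without well-watered library 1 (−0.63, adjusted p = 0.093) or 2 (−0.57, 0.13) and without drought library 1 (−0.83, 0.057), 2 (−0.84, 0.052) or 3 (−0.55, 0.11). Of the 5 tested genes with a CAMKK symbol 2 fell. CAMKK2 (LOC101508489) was at 47.6, 44.1 and 40.2 CPM against 22.4, 26.9 and 28.5 CPM (−0.76 ± 0.14, adjusted p = 0.0014), with the groups apart, and CAMKK6 changed by −1.55 ± 0.39.

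Of the lipid transfer and glycine-rich protein genes, proteins of the cuticle and cell wall, 3 of 4 rose and 1 fell. The lipid transfer protein gene LTP (LOC101505155) was at 181, 300.2 and 740.0 CPM in well-watered leaves, with library 3 the highest, and at 1507, 1699.9 and 1313 CPM under drought. The groups did not overlap, and the rise was 1.89 ± 0.39 (adjusted p = 0.0032), or 2.72 without the libraries 3. LTP2 moved the other way, from 80.5, 97.6 and 96.5 CPM to 34.9, 32.9 and 42.4 CPM, a change of −1.32 ± 0.14 (adjusted p = 3.6e-05). The glycine-rich protein gene GRP2 (LOC101504755) was at 1.54, 0.927 and 11.8 CPM against 33.7, 40.2 and 30.4 CPM. Well-watered library 3 stood above the other controls and below all drought libraries, and the rise was 2.82 ± 0.72 (adjusted p = 0.011), or 4.86 in the agreed libraries. GRP1 (LOC101505079) was at low levels, 0.615, 0.232 and 0.815 CPM against 1.81, 2.75 and 2.16 CPM, and rose by 1.96 ± 0.50 (adjusted p = 0.0085).

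Among 5 metallothionein and ferritin genes, which bind metal ions, 1 rose and 0 fell, with a median of −0.04. It was FER1 (LOC101510209), of the iron store ferritin, at 102, 79.6 and 52.7 CPM against 228, 183 and 116 CPM, with library 3 the lowest of each group and the groups apart. The rise was 1.17 ± 0.34 (adjusted p = 0.019), and the call was lost without well-watered library 2 (1.18, adjusted p = 0.053), well-watered 3 (0.94, 0.08), drought 1 (0.94, 0.08) or drought 2 (1.14, 0.05). Of 2 tested protease inhibitor genes, kpi1, of a Kunitz-type inhibitor, changed by −1.43 ± 0.52 (adjusted p = 0.047), but by −0.58 ± 0.30 (adjusted p = 0.15) in the agreed libraries and by −0.37 (0.38) without well-watered library 3. Its call was lost as well without drought library 1 (−1.28, 0.14), 2 (−1.35, 0.12) or 3 (−1.63, 0.059).

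Other named genes with large changes have less well defined roles. The largest fall among genes with a symbol and a mean of at least 2 CPM was that of lrr (LOC101505004), of a leucine-rich repeat protein, at 17.3, 32.6 and 52.3 CPM in well-watered leaves and 0.302, 0.444 and 2.49 CPM under drought. Library 3 was the highest of each group, the groups lay far apart, and the change was −5.03 ± 0.61 (adjusted p = 1.5e-04), or −6.02 in the agreed libraries. CAAP1 (LOC101488241) was at 9.13, 2.32 and 3.53 CPM against 0, 0.621 and 1.51 CPM (−2.82 ± 0.76), and F-BOX1 (LOC101508373), of an F-box protein, a subunit that picks targets for ubiquitination, rose from 3.28, 2.09 and 2.63 CPM to 14.4, 13 and 12.2 CPM (2.30 ± 0.23, adjusted p = 3.2e-05).

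Many of the largest changes were in genes without a symbol. The reference used gives no role to the genes in this paragraph. Those described first were chosen after their values were seen. They had the largest changes among called genes with non-overlapping groups and a mean of 20 CPM or more in either group. Their lack of overlap was therefore set by the choice. LOC101513086 was at 1.54, 0.464 and 0.634 CPM in well-watered leaves and 182, 181 and 143 CPM under drought, a change of 7.56 ± 0.59. LOC101500742 was at 2.05, 3.71 and 5.34 CPM against 255, 284 and 228 CPM (6.09 ± 0.57). Every drought library was far above every control in both, and LOC101508200, LOC101510690 and LOC101490752 changed by 6.33, 5.53 and 5.37. Among the falls, LOC101493286 went from 125, 250.1 and 624 CPM to 2.92, 2.93 and 8.22 CPM (−6.17 ± 0.78). LOC101498814 went from 184, 131 and 82 CPM to 1.91, 2.13 and 4.11 CPM (−5.61 ± 0.45), and LOC101496585 from 155, 233 and 194 CPM to 2.01, 2.31 and 8.33 CPM (−5.55 ± 0.43). In all 3 the drought libraries stayed under 10 CPM and the controls above 80. Of the 6833 called genes 17 had no read in any drought library, 3 of them with a mean of at least 2 CPM in well-watered leaves: LOC101489769 with 0, 53 and 13 reads, LOC101489976 with 12, 10 and 58, and LOC101491020 with 25, 28 and 18. Their well-watered means were 24.8-fold, 25.9-fold and 25.2-fold above a floor of 3 reads over the drought group, 0.0985 CPM. LOC101489769 had no read in well-watered library 1 either, and LOC101489976 had most of its reads in library 3, of conflicting treatment. Genes without a read under drought in ICC283 could pass the filter on low counts only through other groups. The reverse, no read in any control, held for 3 called genes, 0 of them with a mean of 2 CPM.

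The most abundant transcripts came from the plastid and from genes without a symbol. LOC101500093, the most abundant, was at 187714, 134239 and 134567 CPM in well-watered leaves and 192407, 183048 and 148453 CPM under drought, a change of 0.20 ± 0.18 that was not called (adjusted p = 0.39). LOC101496011 fell from 30895, 29619.9 and 38949 CPM to 9253, 9350.4 and 11688 CPM, with every drought library below every control (−1.72 ± 0.19, adjusted p = 5.2e-05). Of 6 plastid-encoded photosynthesis genes 2 were higher and 2 lower, with a median of −0.19. The cytochrome b6f subunit gene petD was at 14976, 11267 and 15619.7 CPM against 23660.2, 23889.9 and 20241 CPM (0.70 ± 0.14, adjusted p = 0.0028), and petB, of the same complex, changed by 0.52 ± 0.16, a call lost without well-watered library 2 (0.38, adjusted p = 0.082), drought 1 (0.51, 0.058) or drought 2 (0.51, 0.055). The ATP synthase subunit gene atpF was at 13205, 12512 and 8807 CPM against 5657, 5389 and 7610.1 CPM (−0.89 ± 0.19, adjusted p = 0.003), and the photosystem assembly gene ycf3 changed by −0.76 ± 0.15. The NADH dehydrogenase-like subunit gene ndhA changed by 0.03 ± 0.17 and was not called (adjusted p = 0.91). Another 4 plastid-encoded genes tested were clpP, rpl16, rpl2 and rpoC1. Of these, rpl2, of a ribosomal protein, fell by 0.76 on the log2 scale and the others were not called. Non-unique alignments took a larger share in the drought libraries, 53.4%, 53.5% and 50.5%, than in the well-watered, 50.6%, 48.1% and 48.5%, apart from drought library 3 against well-watered library 1, and its part in these values was not tested.

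Compared with ICC8261, ICC283 had more genes called under drought. In ICC8261 3472 genes were called (18.7%), 1830 higher (9.84%) and 1642 lower (8.83%). In the 8 agreed libraries ICC8261 had 2898 calls, 1704 higher and 1194 lower. Without its well-watered library 1, 2 or 3 the count of 3472 became 2287, 1509 and 2165. Without its drought library 1, 2 or 3 it became 1714, 1630 and 3590. Both genotypes were higher for 1083 genes, 35.1% of the rises in ICC283 and 59.2% of those in ICC8261, and both were lower for 1204, 32.2% and 73.3% of the falls. A test of the difference of the drought effects called 479 of 18592 genes (2.58%), 182 with a more positive change in ICC283 (0.979%) and 297 with a more negative one (1.6%). Of the 479, 250 were called lower and 173 higher in ICC283, 56 were called in neither direction there, and 47 were called in both genotypes with opposite signs. In the 8 agreed libraries the count was 2355 (12.6%), and 457 of the 479 were called again in the same direction. The count moved with single libraries: without well-watered library 1, 2 or 3 of ICC283 it was 279, 57 and 2298, without its drought library 1, 2 or 3 it was 55, 112 and 916, without ICC8261 well-watered library 1, 2 or 3 it was 223, 65 and 85, and without ICC8261 drought library 1, 2 or 3 it was 79, 192 and 274.

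DHN and CAPLEA-1 rose in ICC8261 too, by 5.12 ± 0.70 and 6.69 ± 0.66, and the differences of −0.10 and 0.08 were not called (adjusted p = 0.96 and 0.98). In the 8 agreed libraries the rise of DHN was 6.56 in ICC283 and 4.92 in ICC8261, so the difference turned positive, at 1.64, and that of CAPLEA-1 was 0.95, with neither called (adjusted p = 0.14 and 0.75). FTA1 rose by 2.54 ± 0.38 in ICC8261, a difference of 1.40 ± 0.53 (adjusted p = 0.16), and lrr fell there by 1.85 on the log2 scale, a difference of −3.17 ± 0.77 (adjusted p = 0.053). The lrr difference was −4.42 and called in the 8 agreed libraries (adjusted p = 0.004), and it was also called without well-watered library 1 (−3.50, 0.041), well-watered 3 (−2.74, 0.045) or drought 3 (−4.60, 0.009) of ICC283.

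NAC factors were the list with most members called for the difference, 5 of 50, all more negative in ICC283, beside 1.6% of all genes. In ICC8261 5 NAC genes were higher and 1 lower under drought, with a median of 0.06. NAC47 was at 20.5, 38.5 and 24.1 CPM in well-watered and 33.3, 44.5 and 19.1 CPM in drought-stressed ICC8261, groups that overlapped, beside its fall in ICC283, and the difference was −2.19 ± 0.40 (adjusted p = 0.023). In ICC8261 NAC51 was at 8.59, 9.15 and 9.55 CPM and 10.1, 9.92 and 9.69 CPM, and the effects differed by −1.87 ± 0.43 (adjusted p = 0.042). NAC6 was at 36.1, 42.6 and 32.4 CPM and 28.1, 24.3 and 22.6 CPM, lower in each drought library of ICC8261 but by less than in ICC283, a difference of −1.60 ± 0.36 (adjusted p = 0.041). NAC69 was at 14.9, 9.23 and 14.2 CPM and 10.2, 7.17 and 9.42 CPM, with overlap, a difference of −1.39 ± 0.30 (adjusted p = 0.036). The remaining member, NAC5, named after its values were seen, was at 119, 135 and 98.3 CPM in well-watered and 155, 151 and 106 CPM in drought-stressed ICC283, a change of 0.23 that was not called, beside a rise of 1.58 in ICC8261, a difference of −1.36 (adjusted p = 0.047). That call was lost in the 8 agreed libraries (−1.22, adjusted p = 0.058) and in 10 of the 12 fits that left out 1 library. The other 4 were also called for the difference in the 8 agreed libraries, and their calls were lost in 5 to 10 of the 12 fits that left out 1 library, with adjusted p-values of 0.01 to 0.069 for NAC47, 0.0074 to 0.11 for NAC51, 0.0027 to 0.1 for NAC6 and 0.0074 to 0.096 for NAC69.

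Of the 13 genes named here that were called for the difference, GRP1, UGT73C15 and ACS (LOC101514377) kept that call in each of the 12 such fits. GRP1 rose in ICC283 but in ICC8261 it went from 1.83, 1.36 and 2.29 CPM to 0.106, 0.5 and 0.274 CPM, a change of −2.54 ± 0.54 (adjusted p = 0.007), and the difference was 4.50 ± 0.73 (adjusted p = 0.014). UGT73C15, lower under drought in ICC283, was at 20.7, 23.3 and 25.7 CPM and 32.3, 27.1 and 31 CPM in ICC8261, with every drought library above every control there, a difference of −1.76 ± 0.24 (adjusted p = 0.007). ACS was at 78.5, 101 and 69.9 CPM and 38.6, 35.1 and 27 CPM in ICC283, a change of −1.30 ± 0.22, and at 30.3, 47.6 and 59.4 CPM and 72.4, 80.04 and 72.2 CPM in ICC8261, where the drought libraries were all above the controls (0.71 ± 0.22, adjusted p = 0.041; 0.44, adjusted p = 0.083, in the agreed libraries). Their difference was −2.01 ± 0.32 (adjusted p = 0.013). UGT71S1 differed by −1.14 ± 0.26 (adjusted p = 0.042), a call lost in 10 of the 12 fits. The plastid gene atpF fell in ICC283, while the ICC8261 controls held 6352, 6189 and 6946 CPM and the drought libraries 9218, 7181 and 6503 CPM. Its call for the difference, −1.12 ± 0.26 with an adjusted p of 0.046, was lost in 9 of them. LOC101498814 and LOC101496585 fell in both genotypes, by less in ICC8261 (−2.61 ± 0.38 and −3.35 ± 0.37), with differences of −3.004 ± 0.56 (adjusted p = 0.025, lost in 6 fits) and −2.20 ± 0.52 (adjusted p = 0.049, lost in 10).

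**Figure D5:**
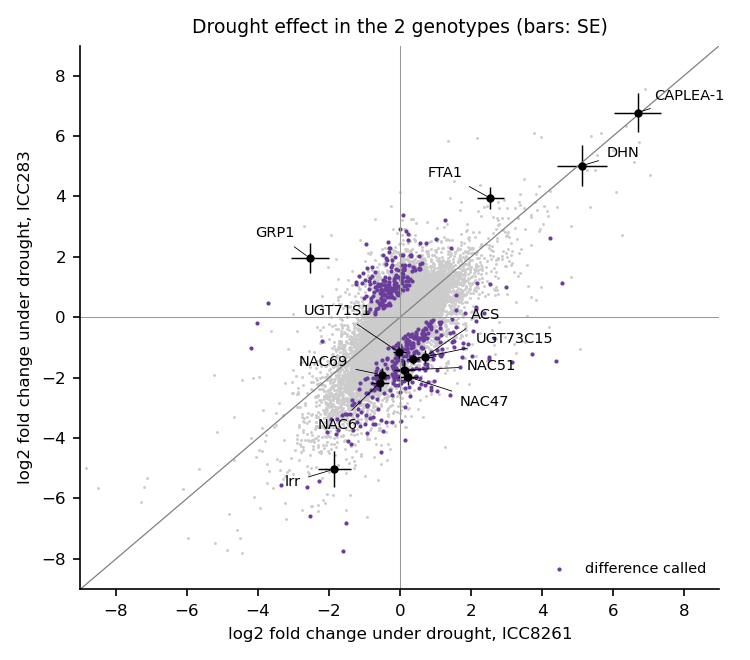
Log2 fold change under drought in ICC283 (y axis) against ICC8261 (x axis) for the genes tested in the 12 libraries, with genes called for the difference in purple and 12 named genes in black with their SE. The grey diagonal is equality: DHN and CAPLEA-1 lie beside it, GRP1 far above it, and NAC47, NAC51, UGT73C15 and ACS below it.

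The authors' deposited table of DESeq2 results for ICC283 called 5198 genes at an adjusted p under 0.05, 2054 higher and 3144 lower. Of these, 5008, or 96.3%, were called in the same direction here, which is 73.3% of the calls made here. Their deposited edgeR table called 4602, of which 4456 (96.8%) were called in the same direction, 65.2% of the calls here. The number called in opposite directions was 0 for both tables. The reads fitted here were recovered from the authors' own normalized counts under the same labels, so these comparisons are not independent.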

How the data were processed

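Per the file headers, the authors' deposited tables hold counts of each library divided by DESeq2 size factors, entered here as a signal, with log2 fold changes, the Wald statistic (a score), p-values and adjusted p-values. Dividing each column by its smallest positive entry gave whole reads for 100% of values (tolerance 0.02), and each column equalled exactly 1 of the deposited count files. The deposited count files hold whole-number counts per gene and library, with 5 HTSeq summary lines that were left out of library sizes and tests; per library of ICC283 between 48.1% and 53.5% of counted alignments were not unique and between 16.6% and 21.4% fell on no feature. The submitters' processing notes list TopHat2 2.1.1, Cufflinks 2.0.2, Trimmomatic and HTSeq beside edgeR and DESeq2. No source used here names the genome build, annotation or strand setting, so reads of overlapping genes on opposite strands and of near-identical copies cannot be told apart.

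Recovered reads entered edgeR 4.0.16 (R 4.3.3), with filterByExpr (minimum count 10, minimum total 15), TMM scaling, 4 group means over 12 libraries with the table's labels, robust glmQLFit, two-sided glmQLFTest, and Benjamini-Hochberg adjustment over all genes tested, called under 0.05. SE is the absolute log2 fold change over the square root of F. CPM use TMM-scaled library sizes, and their precision is limited by counting error and the 3 libraries per group. The 4526 calls of the 6-library fit and all other alternatives come from the same steps, with DESeq2 1.42.0 where named, and the scripts were tested on simulated data.

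Gene symbols came from a RefSeq table (assembly Cicar.CDCFrontier_v2.0) that matched 24445 of 27234 features (89.8%), of which 422 have a name other than a LOC identifier, 76 of them tRNAs. The 21 lists were set by symbol. The members and lists were chosen with earlier results of these data known. Named genes are, among those with a symbol, the 12 largest called rises and falls with non-overlapping groups and a mean of at least 2 CPM, up to 4 members per list and direction by p, every dehydrin, LEA and osmolyte member, up to 8 per direction with the smallest p for the genotype difference, and, whatever their name, the 5 most abundant genes. Replicate numbers were taken not to pair libraries: the correlation of deviations between same-numbered well-watered and drought libraries of ICC283 was 0.26, −0.09 and 0.14, and a limit of 0.1 in every pair was set.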

Additional observations from a re-analysis of the deposited data

Results flagged for a closer look

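For 13 genes named in the text the test of the difference itself, the drought effect in ICC283 minus that in ICC8261, passed an adjusted p under 0.05. It did so for 2.58% of all genes tested. Passing this test was a ground for naming genes here, so the number of 13 is not a result about the named genes. Of the 13 genes 12, all but NAC5, passed it again in the 8 libraries of agreed treatment, which are part of the same 12 libraries. The difference was positive for the glycine-rich protein gene GRP1, at 4.50 ± 0.73. It was negative for the NAC factors NAC6 (−1.60 ± 0.36), NAC69 (−1.39 ± 0.30), NAC47 (−2.19 ± 0.40), NAC51 (−1.87 ± 0.43) and NAC5 (−1.36), for the glycosyltransferase genes UGT73C15 (−1.76 ± 0.24) and UGT71S1 (−1.14 ± 0.26), for ACS (−2.01 ± 0.32), for the plastid ATP synthase gene atpF (−1.12 ± 0.26), for LOC101498814 (−3.004 ± 0.56) and LOC101496585 (−2.20 ± 0.52), and for the plastid tRNA gene trnQ-UUG (−1.02 ± 0.23, adjusted p = 0.041). trnQ-UUG was at 122, 142 and 170.2 CPM in well-watered and 76.2, 96 and 81.8 CPM in drought-stressed ICC283, and at 122, 97.3 and 87.2 CPM and 132, 121 and 111 CPM in ICC8261, and its call was lost in 8 of the 12 fits that left out 1 library (adjusted p from 0.017 to 0.11). In the 8 agreed libraries the differences were 5.49 for GRP1, −2.04 for UGT73C15 and −1.75 for ACS, the 3 of these 13 whose call held without each single library.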

How the results depend on the processing

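The count of genes called under drought in ICC283, 6833, was between 6455 and 7226 with edgeR under DESeq2-type size factors, upper-quartile scaling, no filter on low counts, the replicate block, the 8 libraries of agreed treatment or the 4 agreed ICC283 libraries alone, and with DESeq2. It was 4526 with the 6 ICC283 libraries alone and between 4643 (without drought library 1) and 7061 (without well-watered library 3) when 1 ICC283 library was left out. The treatments of the count files gave 0 calls with edgeR and 32 with DESeq2. For ICC8261 the count of 3472 became 0 with both tools under those labels and ranged from 1509 to 3590 when 1 library was left out. For the difference the count of 479 became 1269 with DESeq2, 2355 in the 8 agreed libraries, 0 under the count-file labels with both tools, and between 55 and 2298 when 1 library was left out. Replicate numbers were taken not to pair the libraries, because the limit set on the correlations was not passed in every pair, but pairing remains possible. With the replicate block the counts were 6977, 3977 and 615, and of the named calls in ICC283 those of HSFA2 and CAMAPK5 were lost.

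Of the 95 named genes' values, 12 changed sign under the count-file labels with edgeR and with DESeq2: lrr 0.021 and 0.014, XTH1 0.49 and 0.49, EXPA1 0.40 and 0.39, ACTIN 0.10 and 0.10, CA-EXPA2 0.55 and 0.55, HSFA2 −0.093 and −0.10, ARF2 0.067 and 0.061, MAPK3 −0.014 and −0.023, kpi1 0.88 and 0.87, ndhA −0.23 and −0.24, LOC101493286 0.72 and 0.72, and LOC101491845 0.38 and 0.37. ndhA, which was not called, was at −0.16 in the 8 agreed libraries, −0.16 in the 4 agreed ICC283 libraries and between −0.15 (without well-watered library 3) and 0.16 (without well-watered library 1) when 1 library was left out. The genotype difference of lrr was 0.44 and 0.43 under the count-file labels with edgeR and DESeq2, and −3.12 and called with the replicate block (adjusted p = 0.022); that of DHN was 1.57 and 1.57 under those labels, 1.64 in the 8 agreed libraries, 0.0021 with the replicate block and from −0.54 to 1.14 when 1 library was left out, and that of CAPLEA-1 from −0.44 to 0.70 when 1 was left out, none of them called. LOC101496585 lost its call for the difference with upper-quartile scaling and with no filter. Of the 92 called named genes 66 kept their call without each ICC283 library in turn, 83 in the 8 agreed libraries and 77 in the 6 ICC283 libraries alone. Promoter motif shares were not run, as no promoter sequences were used here. Depth limits genes at a few reads, such as CAPLEA-1 in well-watered leaves.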
